A study of Homo sapiens with 18 samples.

Results

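WT1 and the 100 kb on either side of its gene body held 20 of the 45354 ChIP-seq peaks of 5 deposited lists from A673, an established human Ewing sarcoma cell line. The gene body spans 47856 bp (hg19 chr11:32409321-32457176) in band 11p13, on the minus strand, so its promoter end is the higher coordinate, 32457176. The locus was chosen by measured values, namely the score and width of its RING1B region, so those values are descriptions and support nothing further. RING1B contributed 2 peaks in replicate 1 and 2 in replicate 2, and monoubiquitinated histone H2A (H2Aub1) contributed 12 and 4. EWSR1-FLI1, for which there was 1 sample, contributed 0. A peak was counted when it shared at least 1 bp with the window, and all peaks of the window are accounted for below.

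The series holds 18 ChIP-seq samples of A673, grown in RPMI 1640 medium without a treatment in the RING1B, H2Aub1 and EWSR1-FLI1 samples used here, and 5 of them have a peak list used here. RING1B was precipitated with antibody D139-3 (MBL), H2Aub1 with D27C4 (Cell Signalling) and EWSR1-FLI1 with ab15289 (Abcam). All samples come from 1 cell line. Since the labels name no separate cultures, agreement between replicates may be technical. The lists held 2573 and 3945 peaks for RING1B, 26423 and 10268 for H2Aub1 and 2145 for EWSR1-FLI1, and read depth is unknown because they carry no read counts.

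WT1 encodes a zinc-finger transcription factor required for the development of kidney and gonads, and germline or somatic loss of it underlies part of Wilms tumours. RING1B is the catalytic subunit of Polycomb repressive complex 1 and attaches ubiquitin to histone H2A, and in mammals the complex gathers at CpG-rich promoters of developmental regulators in cells that do not use them. EWSR1-FLI1, the fusion protein that drives Ewing sarcoma, binds DNA through the ETS domain of FLI1, which reads a GGAA core, and is known for activity at GGAA repeats. No expression values are part of these data, so the activity of WT1 in the cells was not measured.

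The sequence at the start of WT1 is shown because the RING1B domain described below covers the promoter end. RefSeq (GRCh38.p14) gives WT1 4 start windows, each from 250 bp before to 50 bp after a start, and gives 2 to the antisense lncRNA gene WT1-AS, which is transcribed in the opposite direction, on the plus strand. All 6 windows matched by symbol. Capitals mark CpG dinucleotides, and each window is printed in the direction of its own gene. The coordinates of these windows are GRCh38.p14 and cannot be laid onto the hg19 peaks.
WT1 first start, chr11:32435490-32435789, minus strand: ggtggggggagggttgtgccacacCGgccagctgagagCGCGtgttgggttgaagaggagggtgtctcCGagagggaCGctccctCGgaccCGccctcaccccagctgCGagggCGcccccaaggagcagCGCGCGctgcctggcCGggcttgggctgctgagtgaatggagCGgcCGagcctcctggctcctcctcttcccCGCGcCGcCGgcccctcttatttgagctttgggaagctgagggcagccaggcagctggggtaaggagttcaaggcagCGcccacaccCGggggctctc
WT1-AS first start, chr11:32435268-32435567, plus strand: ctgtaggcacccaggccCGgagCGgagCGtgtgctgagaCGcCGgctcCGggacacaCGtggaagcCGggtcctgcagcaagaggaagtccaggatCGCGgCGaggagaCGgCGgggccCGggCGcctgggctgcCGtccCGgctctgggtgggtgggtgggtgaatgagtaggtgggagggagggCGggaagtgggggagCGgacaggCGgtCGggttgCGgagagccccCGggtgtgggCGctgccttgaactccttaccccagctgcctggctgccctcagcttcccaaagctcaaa
WT1 innermost start, chr11:32400351-32400650, minus strand: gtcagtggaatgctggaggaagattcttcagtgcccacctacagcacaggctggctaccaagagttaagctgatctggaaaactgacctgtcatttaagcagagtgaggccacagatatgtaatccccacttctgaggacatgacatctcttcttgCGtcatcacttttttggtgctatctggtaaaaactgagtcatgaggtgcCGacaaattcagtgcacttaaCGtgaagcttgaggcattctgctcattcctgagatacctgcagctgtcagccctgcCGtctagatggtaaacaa

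The outermost starts of the sense and antisense genes lay 21 bp apart, and their windows shared 78 bp with the same bases on opposite strands. The first WT1 window held 21 CpG dinucleotides and the first WT1-AS window 24, beside a median of 14 (quartiles 4 and 28) over 35116 RefSeq start windows of this length. These counts were higher than in 60.5% and 66.1% of all windows, so the promoter was above the middle of the range but not at its top. The WT1 starts 1499 bp and 4726 bp into the gene held 17 and 20, and the innermost, 35139 bp into the gene, held 4. The second WT1-AS window held 10. The core GGAA, searched on both strands, occurred 2 times in the first WT1 window and 4 times in the first WT1-AS window, and 95.5% of all windows held at least 1. The tandem GGAAGGAA, likewise on both strands and counted by the same letters as its 2 cores, occurred in 0 of the 6 windows, beside 3.67% of all windows. A match of letters is a description of the window and not a binding site.

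RING1B formed 1 broad peak over the WT1 promoter in each replicate. In replicate 1 it ran from 32456132 to 32466568 (10437 bp, score 3100), and in replicate 2 from 32455248 to 32466434 (11187 bp, score 3137.47). The score is the authors' own value per peak, on an unstated scale, and it serves here only to rank peaks within a list. Merged, the peaks made a domain of 11321 bp (hg19 chr11:32455248-32466568). The domain lay mostly outside the gene, with 9392 bp (83.0%) upstream of the promoter end and 1929 bp inside the gene body. RefSeq places WT1-AS on that upstream side.

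**Figure D1:**
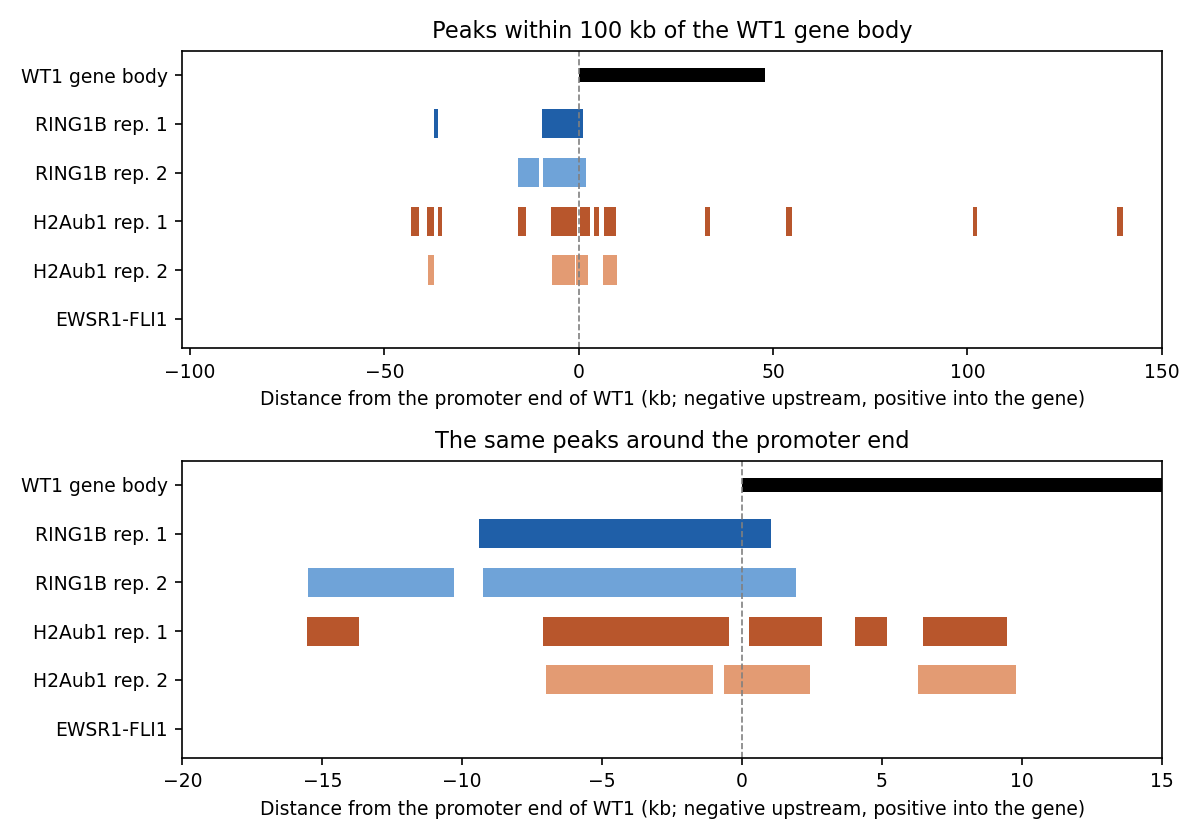
Peaks around WT1 in the 5 lists, drawn to scale against the distance from the promoter end in kb, with transcription of WT1 running to the right. Each bar is 1 peak, the dashed line is the promoter end, the lower panel enlarges the upper, and the EWSR1-FLI1 row is empty because the list has 0 peaks here. The broad RING1B bars lie to the left of the line, with 1045 bp and 1929 bp on its right.

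The edge on the upstream side was set almost alike in both replicates, and the edge inside the gene less so. The upstream edges lay 134 bp apart and the edges in the gene 884 bp apart, against medians of 100 bp at the higher and 104 bp at the lower coordinate over the 1543 reproducible RING1B regions made of 1 peak of each replicate. A reproducible region is a merged region with a peak of each replicate. Both replicates shared 10303 bp, which is 91.0% of the merged WT1 domain, against a median of 82.0% (rank 274 of 1543). The same distance between edges takes a smaller part of a wider region, so this share and rank depend on width. Both edge distances at WT1 were above their medians, so the share does not show closer agreement than usual. With the larger distance in the gene, replicate 2 reached 1929 bp past the promoter end and replicate 1 reached 1045 bp.

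Beside the domain, each RING1B list held 1 further peak that the other lacked, so 1 of the 2 peaks was shared in either list. For comparison, 62.6% of all replicate 1 peaks and 40.9% of all replicate 2 peaks shared at least 1 bp with the other replicate. In replicate 2 a second peak followed 1047 bp upstream of the first, from 32467482 to 32472697. Its score was 78.62, yet its width was 5216 bp, the 7th widest of the 2601 replicate 2 peaks with a score below 100, whose median was 947 bp. In replicate 1 a narrow peak of 926 bp (score 76.07) lay 36315 bp upstream of the promoter end, from 32493491 to 32494416. Over the whole window, bases shared by both replicates made up 90.7% of the RING1B bases of replicate 1 and 62.8% of those of replicate 2, against 62.2% and 41.9% genome-wide. All 10303 shared bp lay in the domain for which the locus was chosen, so these shares are a description and no separate evidence of agreement.

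The mark H2Aub1 covered most of the RING1B domain but not its upstream tail. Replicate 1 covered 8326 bp of the 11321 bp (73.5%) and replicate 2 covered 8500 bp (75.1%), and 7796 bp (68.9%) were under the mark in both. The last base under H2Aub1 inside the domain was 32464277 in replicate 1 and 32464173 in replicate 2. The outermost 2291 bp and 2395 bp of the merged domain, furthest upstream, thus had no called H2Aub1 peak in replicate 1 and replicate 2. The RING1B peak of replicate 2 itself ended 134 bp before the end of the merged domain. Among all 1587 reproducible RING1B regions 19.8% shared at least 1 bp with a reproducible H2Aub1 region. Among those 315 regions the median share under the mark was 89.0% in replicate 1 and 54.3% in replicate 2, and WT1 ranked 198 and 111.

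In each replicate H2Aub1 came as a pair of peaks over the domain. In replicate 1 they were 2597 bp wide (32454324 to 32456920, score 191.61) and 6653 bp wide (32457625 to 32464277, score 479.09). In replicate 2 they were 3051 bp wide (32454754 to 32457804, score 257.31) and 5943 bp wide (32458231 to 32464173, score 346.97). The wider and higher-scoring peak was the upstream one in both. The break between the peaks fell in different places. In replicate 1 it was 704 bp long and held the promoter end, while in replicate 2 it was 426 bp long and lay 629 to 1054 bp upstream of it. Because the breaks do not coincide, the merged H2Aub1 region ran unbroken over the promoter end, from 32454324 to 32464277 (9954 bp), and 90.7% of it lay in the RING1B domain.

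A second H2Aub1 region inside the gene had no RING1B peak. It ran from 32447370 to 32450885 (3516 bp), ending 6291 bp into the gene and 4362 bp from the RING1B domain. Its scores were 274.65 in replicate 1 and 307.87 in replicate 2. The replicate 1 peak there, 2996 bp wide, lay wholly within the replicate 2 peak. Such a region is the common case, since 4.98% of the 6408 reproducible H2Aub1 regions shared at least 1 bp with a reproducible RING1B region. Replicate 1 alone added a peak of 1151 bp between this region and the promoter (32452006 to 32453156, score 80.89).

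Away from the promoter the mark covered a smaller share of the bases than in the RING1B domain and was mostly seen in replicate 1. Replicate 1 alone had 3 peaks downstream of the gene (795 to 1453 bp, scores 61.71 to 76.77) and 1 deep in the gene (1058 bp, score 54.28). In the gene body outside the domain H2Aub1 covered 13.3% of the bases in replicate 1 and 8.73% in replicate 2. Over the 90608 bp upstream of the domain it covered 7.31% and 1.73%, and over the 100 kb downstream of the gene 3.69% and 0%. For comparison, H2Aub1 peaks covered 2323873 bp in replicate 1 and 1202695 bp in replicate 2 of the 53700000 bp of the short arm of chromosome 11. The shares are thus low beside the domain, and not all of them are low beside the arm. The third reproducible H2Aub1 region lay 37353 bp upstream, from 32494529 to 32496301 (1773 bp, scores 73.76 and 52.99). The narrow RING1B peak of replicate 1 sat beside it, 143 bp from the H2Aub1 peak of replicate 1 and 112 bp from that of replicate 2, and 26 bp from another H2Aub1 peak of replicate 1 on its other side (987 bp, score 108.19). The second RING1B peak of replicate 2 shared 1841 bp with an H2Aub1 peak of replicate 1 (32470857 to 32472722, score 97.41), which replicate 2 lacked. The peak of replicate 1 furthest upstream, 41073 bp from the promoter end, was 2027 bp wide with a score of 90.63 and was also seen in that replicate alone.

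Of the 12 H2Aub1 peaks of replicate 1 in the window 4 were found again in replicate 2, and of the 4 peaks of replicate 2 all 4 were found again. The shares for the whole lists were 26.6% and 77.3%. The 4 peaks that recurred in replicate 1 comprised the 3 highest scores of its 12, together with the peak 37384 bp upstream (1742 bp, score 73.76). Of the bases under the mark in the window, 51.8% of replicate 1 and 91.1% of replicate 2 were shared, against 28.4% and 77.3% genome-wide. On the short arm of chromosome 11 the shares were 42.4% and 81.9%, so the window differed less from its arm than from the genome. Of the 12823 bp shared in the window, 7796 bp lay in the RING1B domain for which the locus was chosen. Replicate 1 has the longer list by far, and how list length bears on these shares was not tested.

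No EWSR1-FLI1 peak touched the window. The nearest one began 964513 bp upstream of the domain (33431082 to 33434927, score 55.3), close to the lowest score of the list, 50.04. On the other side the nearest ended 1680335 bp before the domain (30770305 to 30774912, score 100.58). Among all reproducible RING1B regions 66.5% had an EWSR1-FLI1 peak within 100 kb, and the median distance was 0 bp. Ranked from the farthest, the distance at WT1 was number 203 of 1587, so most regions lay nearer to such a peak and a minority lay farther away. Among the 315 regions with H2Aub1, whose median distance was 325479 bp, it was number 89.

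By score the WT1 domain was at the top of the RING1B lists. Its score of 3100 in replicate 1 was shared with 3 other regions as the highest, and its score of 3137.47 in replicate 2 was the second highest of 1587 regions. The value of exactly 3100 recurred, at 4 peaks of RING1B replicate 1 and 2 peaks of H2Aub1 replicate 1 with 0 peaks above it in either list, and at 1 peak of RING1B replicate 2, where 2 peaks lay above it. Whether it is a ceiling of the score was not tested, the 4 tied regions of replicate 1 cannot be told apart by score, and the mean rank rests partly on that tie. With the percentile ranks of both replicates averaged, WT1 was number 2 of 1587. The region ahead of it lay on chromosome 7 (23513485 to 23519640, 6156 bp, scores 3100 and 3198.9) and had neither a reproducible H2Aub1 region nor an EWSR1-FLI1 peak. Numbers 3 to 5 lay on chromosome 7 (25899461 to 25908325, 8865 bp), chromosome 18 (19745201 to 19748616, 3416 bp) and chromosome 14 (74706640 to 74710364, 3725 bp), and each of them carried H2Aub1. WT1 was the widest of the 20 regions with the highest mean percentile, whose widths had a median of 3888 bp and a minimum of 1986 bp. Of these 20 regions, 13 carried H2Aub1 and 5 carried EWSR1-FLI1, beside 19.8% and 56.2% of all reproducible RING1B regions. The count with H2Aub1 lies above its share and the count with EWSR1-FLI1 below, and neither difference was tested. Overlap was counted from 1 bp, which a wide region meets more easily. All reproducible RING1B regions other than WT1 had a median width of 1283.5 bp, so the 20 regions and the whole set are not alike in width.

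The mark itself did not rank as high. The merged H2Aub1 region over the promoter was number 146 of 6408 by width (number 462 of 5505 with peaks up to 1 kb apart merged) and number 610 by mean score percentile. By score it was number 1137 in replicate 1 and number 348 in replicate 2. The region inside the gene was number 1174 by mean score percentile, and the region far upstream number 6246. The number of H2Aub1 peaks within 100 kb of the RING1B domain was 11 in replicate 1 and 4 in replicate 2, against medians of 8 and 5 for the RING1B regions with H2Aub1.

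**Figure D2:**
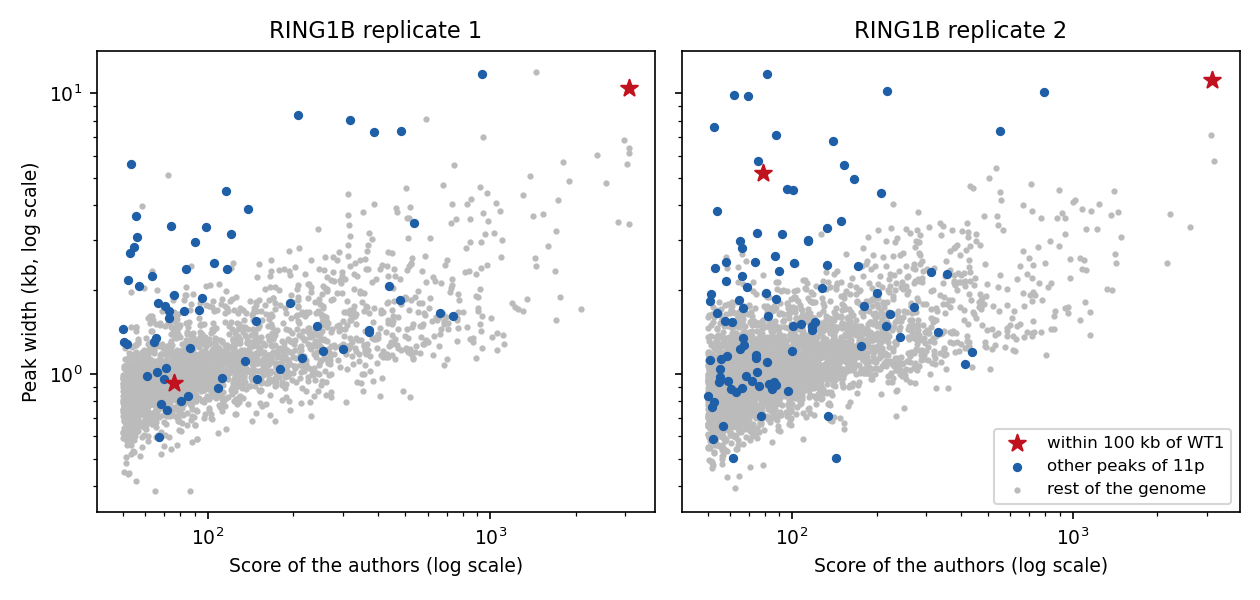
Width in kb against the authors' score for every RING1B peak of replicate 1 and replicate 2, both on log scales. Stars are the 2 peaks within 100 kb of WT1 in each replicate, blue points the other peaks of the short arm of chromosome 11 (11p) and grey points the rest of the genome. The upper star of each panel is the domain at the WT1 promoter, with scores of 3100 and 3137.47, and many blue points with low scores lie above the grey cloud.

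By width the WT1 domain was number 4 of the 1587 reproducible regions, of which 6.24% exceeded 3 kb. Peaks of high score were wide in general, and the WT1 peaks were wider than most of these. The locus was chosen with its score and width known, so this comparison is a description, and the part of score in the width was not tested. Among RING1B peaks with a score of at least 1000, the WT1 peak was 10437 bp wide in replicate 1, against a median of 3088 bp and a maximum of 11944 bp for the 40 others. In replicate 2 it was 11187 bp wide, against a median of 3182 bp and a maximum of 7086 bp for the 28 others.

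The short arm of chromosome 11 was itself unusual in the widths of its peaks. Of the 10 widest reproducible RING1B regions of the genome, 7 lay on it. WT1 was the third widest of the 41 on the arm, behind regions at 31841786 to 31856330 (14545 bp, scores 933.72 and 787.02) and 26586188 to 26597899 (11712 bp, scores 208.88 and 81.15). The next in width measured 10227 bp (30602602 to 30612828, scores 138.85 and 217.22) and 9851 bp (31322010 to 31331860, scores 386 and 62.05). By score the arm was led by WT1 alone, since the next highest scores on it were 933.72 and 787.02. The nearest reproducible RING1B regions lay 598.9 kb below WT1, which is the widest of the arm, and 593.8 kb above it (33060365 to 33063466, 3102 bp, scores 89.93 and 114.09).

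Against its neighbours on the arm WT1 was still wide, but by a smaller factor than against the genome. The RING1B peak at WT1 was 10437 bp in replicate 1, against a median of 1685 bp for the 63 other 11p peaks, a ratio of 6.19 and rank 2 of 64. In replicate 2 it was 11187 bp against 1625 bp for 98 peaks, a ratio of 6.88 and rank 2 of 99. Against all other peaks of the genome, with medians of 1029 and 1035 bp, the ratios were 10.1 and 10.8. Against the other peaks of bands 11p14.2 to 11p12, which surround WT1 (26100001 to 43500000), they were 4.42 and 4.25. Relative to the median of the other reproducible regions within 10 Mb, WT1 was 3.99 times as wide and number 14 of 1585 regions in that ratio. No test was run on any of these widths, since the locus was chosen with them known and peaks are not replicates.

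The widest H2Aub1 peak of the domain was 6653 bp in replicate 1, against a median of 1490 bp for the 921 other 11p peaks (ratio 4.47, rank 64 of 922). In replicate 2 it was 5943 bp against 1677 bp for 474 peaks (ratio 3.54, rank 35 of 475). Within bands 11p14.2 to 11p12 it ranked 4 of 137 and 3 of 62. The wider H2Aub1 peaks of the arm lay mostly in band 11p11.2, where 159 of 239 peaks of replicate 1 and 110 of 167 peaks of replicate 2 exceeded 3 kb, with medians of 3890 and 3836 bp.

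**Figure D3:**
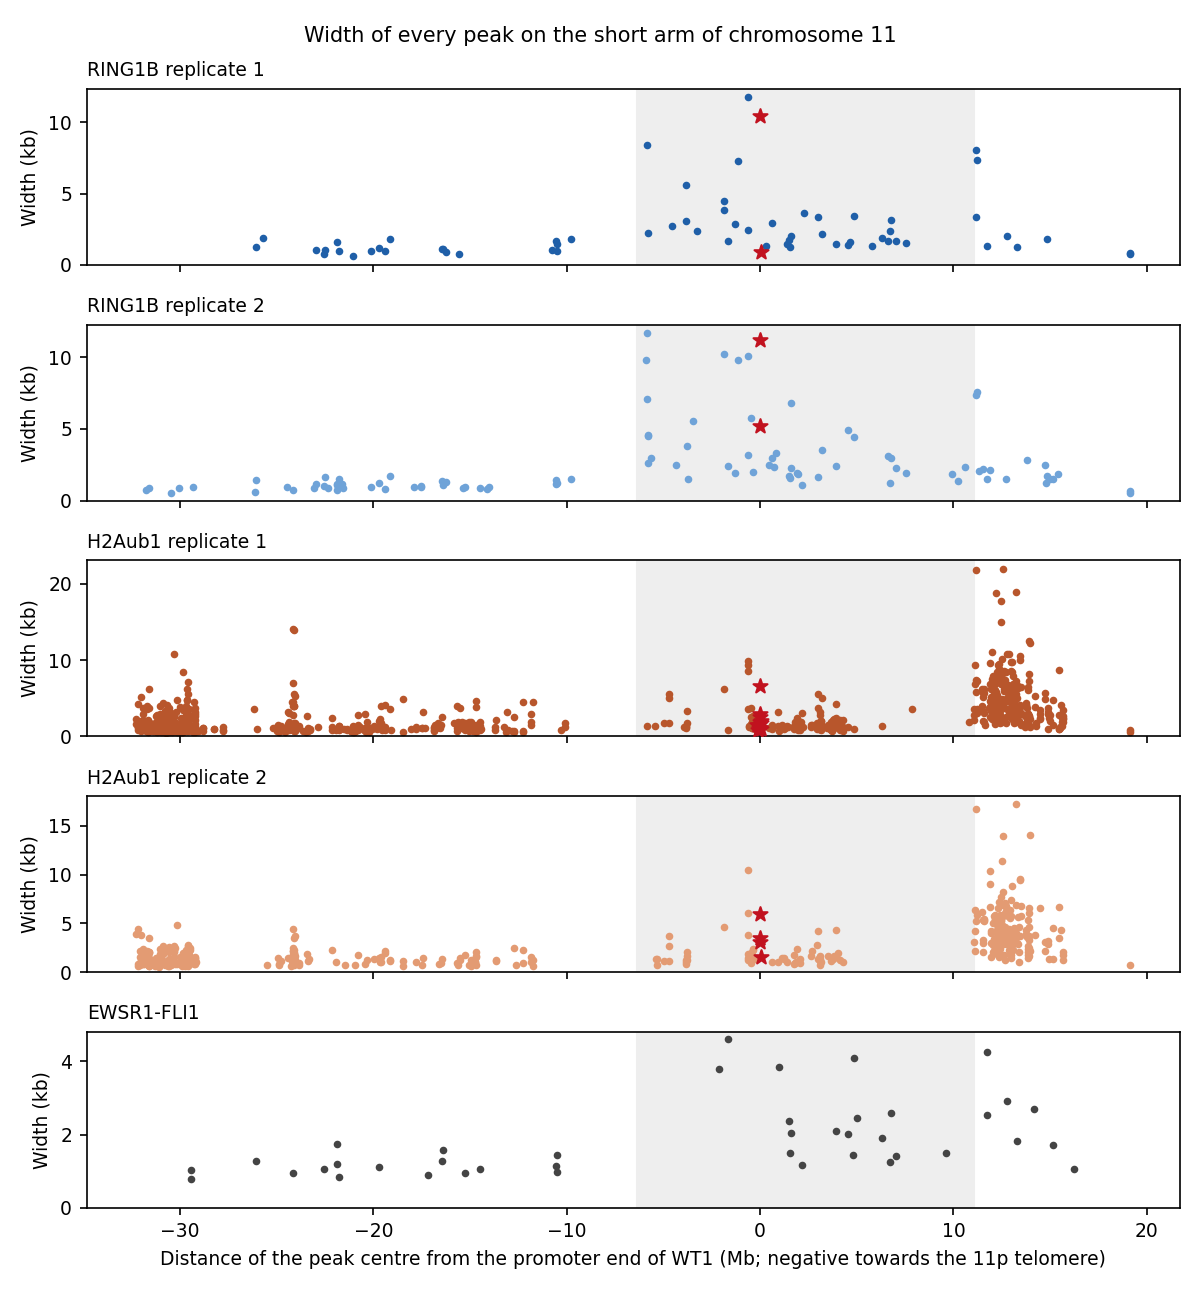
Width in kb of every peak on 11p in the 5 lists, against the distance of its centre from the promoter end of WT1 in Mb. Stars are the peaks within 100 kb of WT1 and the shaded span is bands 11p14.2 to 11p12. RING1B and EWSR1-FLI1 peaks are mostly narrow left of the span and wider within it and to its right, and the widest H2Aub1 peaks lie to its right, in band 11p11.2.

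The extra width around WT1 was not limited to strong peaks or to RING1B. Among peaks with a score below 100, RING1B peaks of bands 11p14.2 to 11p12 had median widths of 2164 bp (19 peaks, replicate 1) and 2446 bp (24 peaks, replicate 2), against 922 and 939 bp on other chromosomes. The 8 EWSR1-FLI1 peaks of this kind had a median of 1982 bp, against 925 bp. H2Aub1 peaks had medians of 1225 and 1313 bp, against 896 and 933 bp. In bands 11p15.5 to 11p14.3, nearer the telomere, the medians were close to those of other chromosomes, from 877 bp (H2Aub1 replicate 1) to 985 bp (RING1B replicate 1). In band 11p11.2 they ran from 1797 bp (RING1B replicate 1) to 2985 bp (H2Aub1 replicate 2). The peaks at WT1 itself were left out of these medians. The second RING1B peak of replicate 2 at WT1 (5216 bp, score 78.62) was number 6 of the 25 replicate 2 peaks of the WT1 bands with such scores. The part of this local excess in the width at WT1 was not tested.

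**Figure D4:**
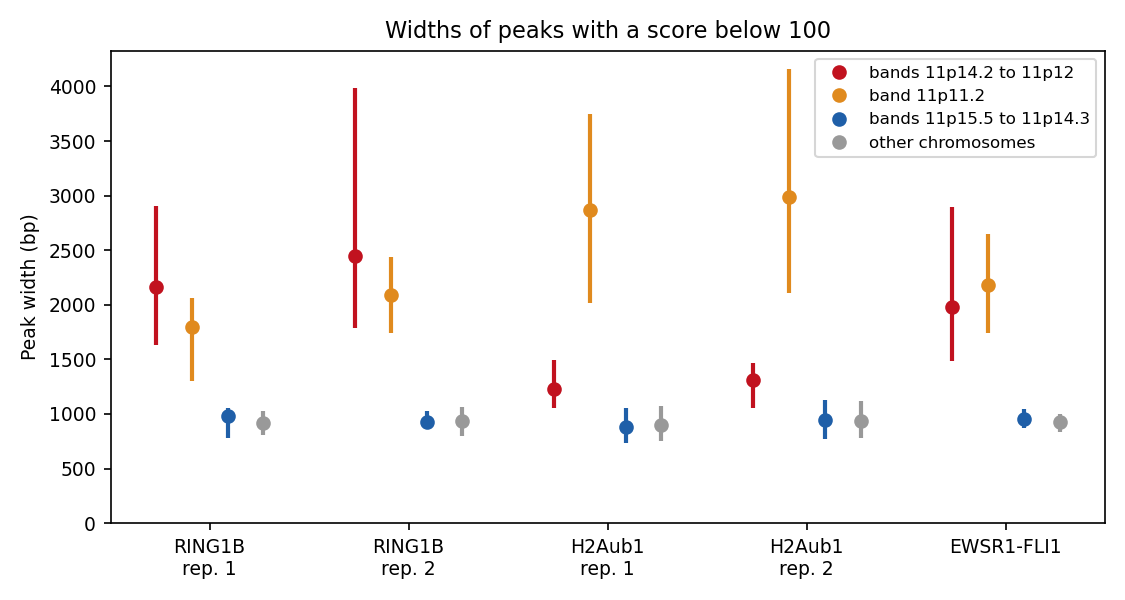
Widths in bp of peaks with a score below 100 in each list, for bands 11p14.2 to 11p12, band 11p11.2, bands 11p15.5 to 11p14.3 and other chromosomes, without the peaks at WT1. Points are medians and bars run from the lower to the upper quartile, over 4 to 15063 peaks. In all 5 lists the medians of bands 11p14.2 to 11p12 and of band 11p11.2 lie above those of other chromosomes.

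RefSeq (GRCh38.p14) places RCN1 and PAX6 next to WT1 among protein-coding genes on the lower-coordinate side and EIF3M and CCDC73 on the other. PAX6 encodes a homeodomain transcription factor of eye and brain development, and EIF3M a subunit of a translation initiation factor. A gene annotation of hg19 was not used here, so the neighbouring peaks are given by coordinates and carry no gene names.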

How the data were processed

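ChIP-seq peak lists of RING1B (2 replicates), H2Aub1 (2 replicates) and EWSR1-FLI1 (1 sample) in A673 cells were used, while 13 samples were not analysed here. Bowtie was used and coordinates refer to hg19, per the submitters' processing notes, which also list mm9 for RING1B and H2Aub1 without a role. Peak names in the files begin with MACS, and each sample has 1 list. The score of each peak is a value the authors deposited, its scale is unstated, and the lowest in each list was close to 50. Filters, use of input and read depth are unstated, and a list can be longer through deeper sequencing, so list length limits precision in an unknown way.

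Coordinates are hg19, written 1-based. The gene body of WT1 came from the rule that defines the locus, and band bounds from the hg19 cytoband table of the R package circlize. Peaks of both replicates sharing at least 1 bp were joined, and joined regions containing peaks from both replicates were kept as reproducible. Named regions are all RING1B peaks of the window, the H2Aub1 peaks over the domain and the 5 widest of each replicate, the top 5 regions by mean score percentile and the 5 widest on 11p. Other H2Aub1 peaks, bands 11p15.5 to 11p14.3 and 11p11.2 and the score limits of 100 and 1000 were picked after their values were seen. The window and comparisons were chosen with earlier results of these data known, and no test was run. Planned gene lists needed an hg19 annotation and were not run. Computation used Python 3.11.15 with pandas 2.3.3, and merging, overlap and ranks were tested on simulated data.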

Additional observations from a re-analysis of the deposited data

How the results depend on the processing

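The window held 18 peaks at 50 kb and 26 at 200 kb, and 12 of its 20 peaks belonged to the top 50% of their lists by score. The RING1B domain widened to 17450 bp when peaks up to 1 kb apart were merged, which joins the second peak of replicate 2, and measured 10437 to 11187 bp in single replicates. The H2Aub1 region kept its 9954 bp with that merging, but other regions grew, so its rank by width moved to 462 of 5505, against 146 of 6408. Its widest peak in single replicates measured 5943 to 6653 bp, because the merged region joins 2 peaks of each. The RING1B rank of 2 became 4 by width and 14 by width over the local median, and ranged from 1 to 2 in single replicates. The H2Aub1 rank of 610 ranged from 388 to 1195 in single replicates, ranked over whole lists. The mean RING1B width ratio of 6.54 to other 11p peaks was 8.29 to chromosome 11, 10.5 to all peaks, 4.34 to bands 11p14.2 to 11p12, 9.39 to the rest of the arm, 5.75 for the highest-scoring 50% of peaks and 6.19 to 6.88 in single replicates. For H2Aub1 the ratio of 4.0 was 4.87 to chromosome 11, 5.69 to all peaks and 3.54 to 4.47 in single replicates. It was 4.52 to bands 11p14.2 to 11p12, 3.87 to the rest of the arm and 2.76 for the highest-scoring 50%. Merged regions set against the other reproducible regions of 11p gave lower ratios. These were 5.32 for RING1B (rank 3 of 41) and 2.64 for H2Aub1 (rank 20 of 315). The share of the RING1B domain under reproducible H2Aub1 regions was 79.8%. It did not change with the union of replicates or with an overlap of at least 50%. With replicate 1 set against replicate 1 and replicate 2 against replicate 2, the shares were 71.3% and 76.0%. These are shares of the RING1B peak of that replicate (10437 and 11187 bp), and not of the merged domain. Shared bases, as a share of the union in the window, were 59.0% for RING1B and 49.3% for H2Aub1, and 62.3% and 61.5% for the highest-scoring 50%. The nearest EWSR1-FLI1 peak of that part of the list lay 1485 kb away instead of 964.5 kb. The local-median rank, the width rank with merging and the alternatives for shared bases and for EWSR1-FLI1 were added after seeing the data. No paired analysis was possible because the results come from no test, and same-numbered replicates could only be set side by side, as in the 71.3% and 76.0% above. Depth is unknown, so a missing peak shows only that none was called.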
